A study of Mus musculus with 2 samples.

Results

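The genes Ripk1, Ripk3, Mlkl, Casp8, Cflar, Birc2, Birc3 and Fadd encode proteins that decide between survival, apoptosis and necroptosis in macrophages. They are listed by name for their role, with no threshold on a measured value, although earlier results of these data were known. They are 8 of the 55450 annotated genes in the tables, and all 8 were among the 14587 genes with at least 10 expected counts in both libraries. An expected count is the number of reads that a quantification model assigns to a gene, and it need not be whole. The annotation gives these genes 48 transcripts.

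RNA was measured in bone-marrow-derived macrophages of C57BL/6J mice, which are phagocytes grown in culture from marrow. All cells had been given lipid A, the TLR4-binding part of bacterial lipopolysaccharide, at 100 ng/ml for 12 h. They were then washed, rested for 12 h, and given 100 ng/ml lipid A again for 25 min. Total RNA of the nucleoplasmic fraction, with ribosomal RNA removed, was sequenced from 2 replicates, which formed 1 group. Replicate 1 was started from 500 ng of RNA and replicate 2 from 1 µg, so replicate and starting amount cannot be told apart. The donor entry of both is identical, so their spread may be technical only. No unstimulated, once-stimulated or cytoplasmic sample was analysed here, and no value below is a response to lipid A. In bulk RNA, fewer cells expressing a gene and less RNA per cell cannot be told apart.

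Binding of TNF to its receptor, or of lipopolysaccharide to TLR4, brings the kinase RIPK1 into signalling complexes, where the ubiquitin ligases cIAP1 (Birc2) and cIAP2 (Birc3) modify it and favour survival. When that control is lost, the adaptor FADD brings in procaspase-8 (Casp8), whose full activation leads to apoptosis. The inactive caspase-8 homologue cFLIP (Cflar) pairs with caspase-8 and restrains it, and the pair cleaves RIPK1 and RIPK3. When caspase-8 is inactive, RIPK3 phosphorylates the pseudokinase MLKL, which breaks the plasma membrane, the end step of necroptosis. Macrophages are a cell type in which this route is well known after TLR4 stimulation.

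The 2 libraries held 20196408 and 19588980 expected counts. Values are given as TPM, a unit that is per length and scaled to a fixed total in each library. Over the 14587 detected genes the TPM of the replicates had a Spearman correlation of 0.967. Of 8 macrophage markers, all 8 had at least 1 TPM in both libraries, from 69.9 to 1640 TPM. None of the 7 neutrophil, 6 lymphocyte, 3 dendritic, 3 mast cell or basophil and 3 erythroid markers reached 1 TPM in either library. Of these, 5 neutrophil and 3 lymphocyte markers were listed at 0 in both libraries, and the summed level of each of these 5 lists was at most 1.00 TPM in either library. Among 5 stromal and endothelial markers, Pecam1 alone reached 1 TPM, at 2.02 and 1.48 TPM.

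Coding transcripts of Cflar, Birc3 and Mlkl part from one another inside the gene, and Ripk1 has a transcript that keeps an intron. Their sequences are shown first because the transcript results below turn on them. They are sense-strand bases of GENCODE M21 transcripts on GRCm38, 5′ to 3′, and lower case marks bases that both transcripts of a pair share. In the Cflar, Birc3 and Ripk1 pairs the capitals mark the bases that follow the point of parting, which lies after base 58732326 of chromosome 1 (+ strand), base 7857390 of chromosome 9 (− strand) and base 34013387 of chromosome 13 (+ strand). In the Mlkl pair the capitals mark 24 coding bases that only Mlkl-201 has, after base 111314965 of chromosome 8 (− strand).
Cflar-204: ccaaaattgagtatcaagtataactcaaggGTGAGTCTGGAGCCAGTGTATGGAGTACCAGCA
Cflar-205: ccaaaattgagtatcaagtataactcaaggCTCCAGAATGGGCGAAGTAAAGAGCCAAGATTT
Birc3-202: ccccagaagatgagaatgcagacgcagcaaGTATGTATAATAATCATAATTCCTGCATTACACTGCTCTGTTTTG
Birc3-201: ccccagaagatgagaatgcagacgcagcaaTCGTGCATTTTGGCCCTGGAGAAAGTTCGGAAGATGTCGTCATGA
Ripk1-202: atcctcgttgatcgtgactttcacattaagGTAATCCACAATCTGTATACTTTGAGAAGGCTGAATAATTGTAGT
Ripk1-201: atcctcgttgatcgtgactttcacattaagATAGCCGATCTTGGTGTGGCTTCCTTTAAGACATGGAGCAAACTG
Mlkl-201: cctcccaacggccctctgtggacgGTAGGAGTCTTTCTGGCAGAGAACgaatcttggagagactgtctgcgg
Mlkl-202: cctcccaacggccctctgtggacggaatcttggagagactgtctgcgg
In each pair the transcript named first continues past a splice site into the intron, and its capitals begin with the GT of that site. Cflar-204 and Birc3-202 read on to a stop codon in the intron, after 33 and 47 further coding bases. The partner's capitals in the Cflar, Birc3 and Ripk1 pairs are the first bases of its next exon.

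Across the 8 genes, Cflar and Birc3 had the highest levels and Ripk3 and Fadd the lowest. The genes for the inhibitors cFLIP and cIAP2 thus stood above those for the kinases, the caspase and the adaptor in both libraries. The gene for cIAP1, Birc2, did not, as it lay below Casp8, Ripk1 and Mlkl in both libraries. The mean order was Cflar, Birc3, Casp8, Ripk1, Mlkl, Birc2, Ripk3 and Fadd. Neighbours in this order did not overlap between the 2 libraries, except that Casp8 overlapped Ripk1 and Ripk1 overlapped Mlkl. Over complete coding transcripts alone, Birc3 and Casp8 overlapped (55.27 against 56.09 TPM at the nearest), Casp8 and Ripk1 did not, and Mlkl, at a mean of 27.9 TPM, stood above Ripk1, at 22.0 TPM. The 8 genes had median levels of 33.4 and 29.9 TPM in replicates 1 and 2, beside 6.99 and 5.79 TPM over all detected genes. Cflar alone made up 53.4 and 54.2% of the summed TPM of the 8 genes, and Birc3 another 18.4 and 20.9%.

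**Figure D1:**
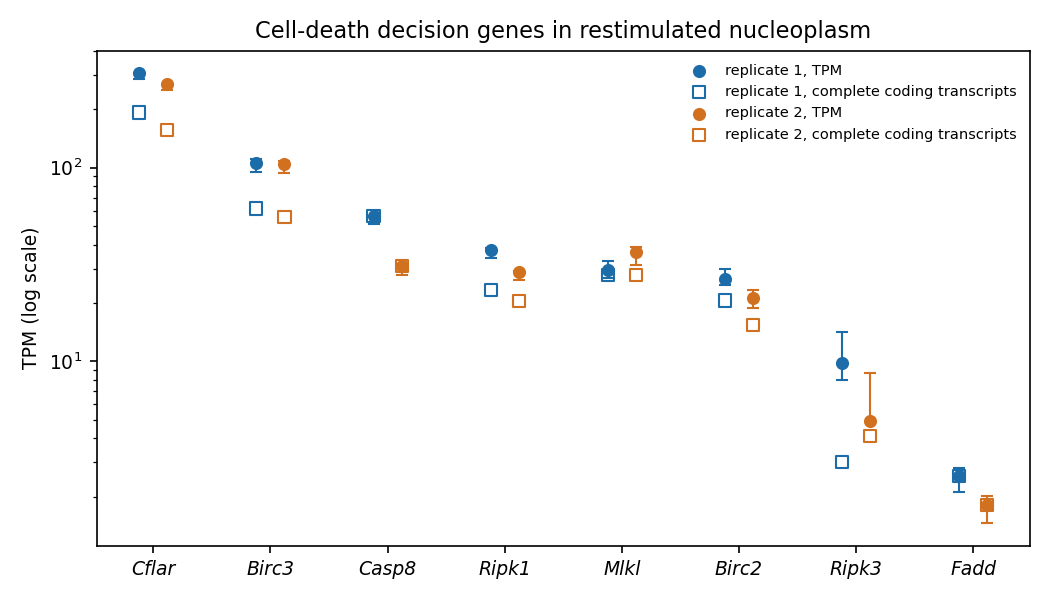
Level of each gene in each library, in TPM on a log axis; filled circles are the TPM, open squares the TPM summed over transcripts with a complete coding sequence, and bars the deposited interval of the posterior mean TPM. Cflar stands highest at 306.83 and 270.67 TPM and Fadd lowest at 2.55 and 1.81 TPM.

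Ripk1, the kinase at the head of both death routes, lies on chromosome 13 (34002363 to 34037147, + strand, GRCm38, as are all positions). Its level was 37.41 TPM in replicate 1, against 28.86 TPM in replicate 2, from 2246 and 1922 expected counts (33.1 ± 6.05 TPM, SD, n = 2). These levels lay at the 87.2 and 85.4 percentile of detected genes. The main coding transcript, Ripk1-201 of 656 codons, differed little between the libraries, at 17.43 and 17.21 TPM. Ripk1-203, of the same coding length but with 6472 bases in all, had 6.00 and 3.35 TPM. Ripk1-202, annotated as a retained intron, had 11.36 and 7.15 TPM, or 30.4 and 24.8% of the gene's TPM, and 1299 of its 2121 bases lie outside the exons of the complete coding transcripts. Most of the difference in Ripk1 between the libraries therefore lay in Ripk1-202 and Ripk1-203. Ripk1 shares 432 bases with Serpinb6a on the opposite strand, at 55.7 and 48.7 TPM, and also spans the pseudogenes Gm17083 and Gm17084. The strand setting of the counting is not given in the sources used here, so reads of such overlaps cannot be told apart.

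Ripk3, the kinase that starts necroptosis, lies on chromosome 14 (55784995 to 55788865, − strand). Its level was 9.75 TPM in replicate 1, against 4.94 TPM in replicate 2 (7.35 ± 3.40 TPM, SD, n = 2), at the 58.3 and 46.1 percentile. The TPM was higher in replicate 1, while the expected counts were 136 and 159, with exact Poisson 95% intervals of 114 to 161 and 135 to 186 that overlap. After TMM scaling of library sizes Ripk3 had 6.52 and 8.42 CPM (counts relative to library size), so its direction between the libraries turned with the measure. The gene's effective length, by which TPM divides, was 702 bases in replicate 1 and 1480 bases in replicate 2. In replicate 1, Ripk3-209, a coding fragment of 482 bases, took 36.5% of the TPM from 18.5 counts, and Ripk3-208, another fragment, took 12.6%. Both were listed at 0 in replicate 2. The full-length Ripk3-201, of 486 codons, had 3.03 and 2.83 TPM. Ripk3-202, of 422 codons, was listed at 0 in replicate 1 and had 1.27 TPM in replicate 2. The retained-intron transcripts were low in both, with Ripk3-207 at 1.94 and 0.29 TPM and Ripk3-206 at 0 and 0.55 TPM. Summed over complete coding transcripts, Ripk3 had 3.03 and 4.10 TPM, in the same order as the counts.

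Mlkl, the membrane-breaking effector of necroptosis, lies on chromosome 8 (111311797 to 111338177, − strand). It had 29.44 and 36.61 TPM from 988 and 1166 expected counts (33.0 ± 5.07 TPM, SD, n = 2), and was the only one of the 8 genes with a higher TPM in replicate 2. Mlkl-202, of 464 codons, held most of this, at 25.83 and 24.48 TPM. Mlkl-201, with the 24-base insertion shown above and hence 472 codons, had 2.06 and 3.35 TPM. Of the counts of these 2 transcripts together, Mlkl-201 took 7.49% in replicate 1 (95% Wilson interval 6.00 to 9.32%), against 12.2% in replicate 2 (10.4 to 14.2%). The kallisto-layout table gave this transcript 17.7 and 21.9% of the TPM of the pair. The fragment Mlkl-204 was listed at 0 in replicate 1, with a deposited interval that reaches 4.08 TPM, and had 7.47 TPM from 66.2 counts in replicate 2. In the kallisto-layout table it took 15.0 and 25.0% of the gene's TPM. Without fragments and noncoding transcripts Mlkl stood at 27.89 and 27.83 TPM. By counts, Mlkl-202 had 901 and 953 and Mlkl-201 had 73.0 and 132, so both were higher in replicate 2, as were the TMM-scaled counts of the gene, at 47.4 and 61.7 CPM. The processed transcript Mlkl-203 had 1.56 and 1.32 TPM. A pseudogene on the opposite strand, Gm45712, had 10 counts in each library.

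Within a library, Mlkl exceeded Ripk3 3.02-fold in replicate 1 and 7.41-fold in replicate 2 (log2 2.22 ± 0.91, SD, n = 2). Ripk1 exceeded Ripk3 3.84-fold and 5.84-fold (log2 2.23 ± 0.42). Log2 ratios between genes and between libraries, here and below, are on the log2(TPM + 0.1) scale, which understates differences of low genes. Folds printed between genes are ratios of the TPM itself, with nothing added. Over complete coding transcripts the log2 ratio of Mlkl to Ripk3 was 3.16 in replicate 1 and 2.73 in replicate 2. Mlkl and Ripk1 stood above Ripk3 in both libraries on either measure, but the library with the larger ratio differed between the measures.

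Casp8, the protease that starts death-receptor apoptosis and holds back necroptosis, lies on chromosome 1 (58795374 to 58847503, + strand). Its level was 56.09 TPM in replicate 1, against 30.99 TPM in replicate 2 (43.5 ± 17.7 TPM, SD, n = 2). Casp8 was higher in replicate 1 also by expected counts, 1975 against 1313, and after TMM scaling, 94.7 against 69.5 CPM. The deposited posterior intervals, 51.3 to 56.1 TPM and 27.9 to 31.3 TPM, do not overlap, but they cover the error of quantification and not that between samples. All 4 annotated transcripts have a complete coding sequence, so Casp8 has no annotated noncoding share. Casp8-202, of 480 codons, had 48.77 and 17.84 TPM. Casp8-201 encodes as many codons from another first exon and has a longer 3′ end, and it had 6.60 and 10.96 TPM. Of the counts of both, Casp8-201 took 15.9% in replicate 1 (95% Wilson interval 14.3 to 17.6%), against 46.0% in replicate 2 (43.2 to 48.8%). On these values the lower Casp8 level of replicate 2 lay in Casp8-202, while Casp8-201 had more. The Wilson intervals do not cover the assignment of reads to transcripts. The kallisto-layout table gave Casp8-201 15.7 and 31.2% of the TPM of the pair. Of the gene's TPM it gave Casp8-202 80.2 and 51.6%, and Casp8-201 14.9 and 23.4%. Casp8-204, of 500 codons, had 0.22 TPM in replicate 1 and 0 in replicate 2, while the kallisto-layout table gave it 4.94 and 22.7% of the gene's TPM. An unclassified gene on the same strand, Gm37760, overlaps Casp8 over 3841 bases and had 576 and 487 counts.

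Fadd, the adaptor that links death receptors to caspase-8, lies on chromosome 7 (144577318 to 144582463, − strand) and has a single annotated transcript, of 205 codons. It was the lowest of the 8 genes, at 2.55 and 1.81 TPM (2.18 ± 0.52 TPM, SD, n = 2), and the only one below the median of detected genes in both libraries, at the 27.5 and 24.9 percentile. Its expected counts were 186 and 146, with exact Poisson 95% intervals of 161 to 215 and 124 to 172, which overlap. The log2 ratio of Fadd to Casp8 was −4.41 in replicate 1 and −4.02 in replicate 2, so the adaptor lay far below the caspase in both. Casp8 in turn exceeded Ripk3 5.75-fold and 6.27-fold (log2 2.57 ± 0.08, SD, n = 2). That small spread holds for the gene TPM, since over complete coding transcripts the log2 ratio was 4.17 in replicate 1 and 2.89 in replicate 2. The antisense gene Faddos covers 4195 bases of Fadd and had 6.61 and 8.66 counts.

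Cflar, the caspase-8 homologue that lacks protease activity, lies on chromosome 1 (58711508 to 58758884, + strand), and Casp8 begins 36489 bases beyond its end on the same strand with the gene Gm3841 between. The level of Cflar was 306.83 TPM in replicate 1, against 270.67 TPM in replicate 2, from 20730 and 20457 expected counts (289 ± 25.6 TPM, SD, n = 2). Both levels were among the highest of all detected genes, at the 99.0 and 98.8 percentile. Cflar exceeded its neighbour and partner Casp8 5.47-fold in replicate 1 and 8.73-fold in replicate 2 (log2 2.79 ± 0.48). Over complete coding transcripts, where Cflar had 192.42 and 156.48 TPM, the log2 ratio was 1.78 and 2.33, so the excess was smaller but remained in both libraries.

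The long form, Cflar-205, of 10 exons, 481 codons and 6572 bases, had 110.78 and 103.76 TPM. The short Cflar-204, of 5 exons and 215 codons, is 266 codons shorter and had 81.64 and 52.65 TPM. As background, long cFLIP carries a caspase-like domain that short forms lack, and short forms block caspase-8 activation altogether. Of the TPM of these 2 transcripts, the short one took 42.4% in replicate 1 and 33.7% in replicate 2 (38.0 ± 6.20%, SD, n = 2). By expected counts, which are not per length, it took 17.2% (95% Wilson interval 16.6 to 17.8%) and 12.7% (12.2 to 13.2%). The kallisto-layout table gave 43.7 and 37.9% of TPM. The share was higher in replicate 1 on all 3 measures, and the long form was the more abundant of the pair in both libraries.

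Noncoding transcripts took 37.3 and 42.2% of the TPM of Cflar and 18.6 and 19.3% of its counts. The largest by counts was Cflar-213, a retained-intron transcript of 1 exon and 3677 bases, none of which lies in an exon of a complete coding transcript. It had 44.29 and 38.20 TPM from 3042 and 2902 counts, or 14.4 and 14.1% of the TPM. This intronic signal was alike in both libraries and by both measures, at 14.7 and 14.2% of counts. Cflar-208, a processed transcript of 378 bases, took 10.6 and 11.4% of the TPM but 0.50 and 0.63% of the counts, which shows how far a short transcript can move a TPM share.

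Birc2, the gene of the ubiquitin ligase cIAP1, lies on chromosome 9 (7818227 to 7837064, − strand), 11634 bases from Birc3 on the same strand with no gene between. It had 26.45 and 21.14 TPM from 1399 and 1119 expected counts (23.8 ± 3.75 TPM, SD, n = 2). Birc2-204, of 612 codons, had 20.57 and 10.47 TPM. Birc2-202, with as many codons, was listed at 0 in replicate 1 and had 4.03 TPM in replicate 2. Its deposited interval in replicate 1 reaches 3.76 TPM. In the kallisto-layout table Birc2-202 took 8.34 and 6.73% of the gene's TPM, and Birc2-204 took 40.7 and 50.7%. Birc2-203, a retained-intron transcript of 1 exon with 939 of 1316 bases outside the exons of the complete coding transcripts, was steady at 5.88 and 5.69 TPM, or 22.2 and 26.9% of the gene's TPM. The processed transcript Birc2-205 was listed at 0 in both libraries, although the kallisto-layout table gave it 31.9 and 13.7% of the TPM. The noncoding share of Birc2 therefore rests on the table used.

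Birc3, the gene of cIAP2, lies on chromosome 9 (7848699 to 7873186, − strand). It had 105.78 and 104.55 TPM from 3242 and 3296 expected counts (105 ± 0.87 TPM, SD, n = 2), the smallest relative spread of the 8 genes by gene TPM. By TMM-scaled CPM it had 155 and 175, a larger relative spread than that of Ripk1, at 108 and 102, or Cflar, at 994 and 1083. Birc3 exceeded Birc2 in both libraries, by log2 2.00 in replicate 1 and 2.30 in replicate 2 (2.15 ± 0.22, SD, n = 2). Over complete coding transcripts, with Birc3 at 61.45 and 55.27 TPM, the log2 ratio was 1.57 and 1.83.

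Birc3-201, the full-length transcript of 602 codons, had 35.25 and 34.28 TPM. Birc3-202, which ends in an intron after 376 codons, had 26.20 and 20.99 TPM. As background, the RING domain that gives cIAP2 its ubiquitin ligase activity lies at the end of the protein, and Birc3-202 is 226 codons shorter. Of the TPM of this pair Birc3-202 took 42.6 and 38.0% (40.3 ± 3.29%, SD, n = 2), and of its counts 44.9% (95% Wilson interval 43.2 to 46.7%) and 40.2% (38.5 to 41.9%). The truncated transcript was thus the lesser one in both libraries, on either measure, with its share higher in replicate 1.

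The processed transcripts Birc3-205 and Birc3-206, of 355 and 360 bases, lie largely in the first intron, with 280 and 325 bases outside the exons of the complete coding transcripts. Birc3-205 had 19.17 and 25.81 TPM from 52.0 and 96.0 counts. Birc3-206 had 24.22 and 20.92 TPM from 68.0 and 80.0 counts. Because of these short RNAs, noncoding transcripts made up 41.4 and 46.3% of the TPM of Birc3 but 3.79 and 5.77% of its counts.

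**Figure D2:**
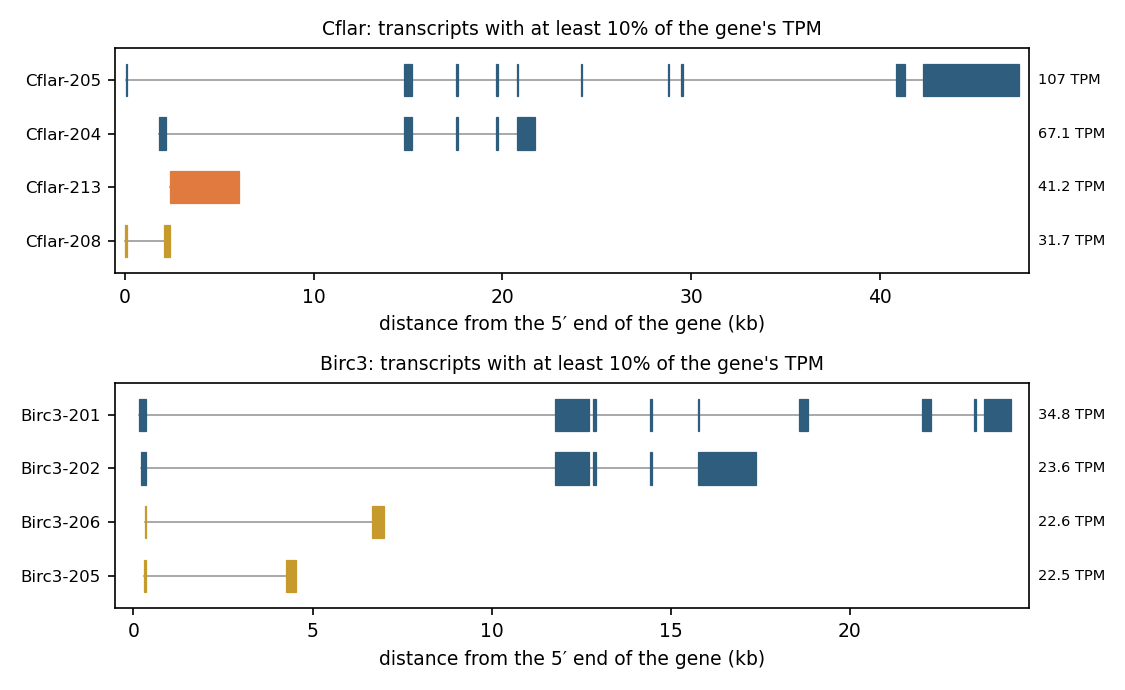
Exons (boxes) and introns (lines) of the Cflar and Birc3 transcripts with at least 10% of the gene's TPM, by distance from the 5′ end of the gene in kb, with the mean TPM of 2 libraries at the right; blue marks protein-coding, orange retained-intron and yellow processed transcripts. Cflar-204 and Birc3-202 end in an intron of the longer transcript, and Cflar-213, Cflar-208, Birc3-205 and Birc3-206 lie near the start of their genes.

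Across the 8 genes, the noncoding share of TPM was highest in Birc3, Cflar and Ripk1, and lower in Birc2, Ripk3 and Mlkl, while Casp8 and Fadd have no annotated noncoding transcript. The share was 37.4 and 28.8% for Ripk1, 19.9 and 17.0% for Ripk3, and 5.30 and 3.60% for Mlkl. By counts it was highest in Ripk1, at 19.9 and 16.2%, and in Cflar, so the order of the genes changed with the measure. The kallisto-layout table gave 35.7 and 31.7% for Ripk1, 39.6 and 43.2% for Cflar, 61.7 and 67.0% for Birc3, 51.0 and 42.6% for Birc2, 27.1 and 14.0% for Mlkl, and 19.1 and 14.1% for Ripk3. The shares of Mlkl, Birc2, Birc3 and Cflar were thus higher in that table in both libraries, with the smallest difference in Cflar. The tables count introns only where a transcript that holds them is annotated, so these shares are no measure of all unspliced RNA.

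**Figure D3:**
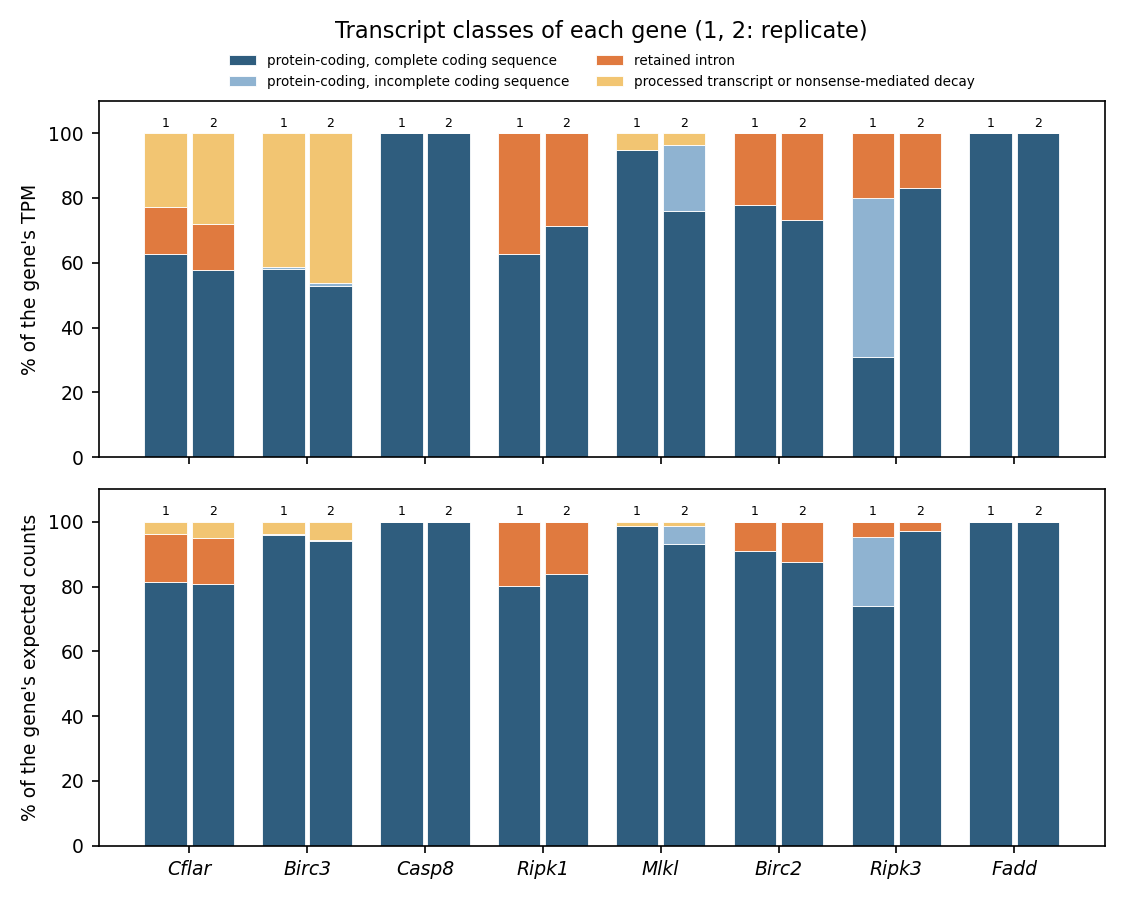
Share of each gene's TPM (top) and expected counts (bottom), in percent, by transcript class in replicates 1 and 2. Birc3 has 41.4 and 46.3% of its TPM but 3.79 and 5.77% of its counts in noncoding transcripts, and Ripk3 has a large share in incomplete coding transcripts in replicate 1 and none in replicate 2.

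The replicates are the only samples that can be set against each other, and this shows the spread within which any level above can be read. None of the 8 genes differed 2-fold or more on the log2(TPM + 0.1) scale, and 9.51% of detected genes did. After TMM scaling again none of the 8 did, and 6.97% of detected genes did. A count of 0 among 8 genes is near these shares and is no result about the genes. The log2 ratio of replicate 2 to replicate 1 was −0.97 for Ripk3, −0.85 for Casp8, −0.47 for Fadd, −0.37 for Ripk1, −0.32 for Birc2, −0.18 for Cflar, −0.02 for Birc3 and 0.31 for Mlkl. The median of all detected genes was −0.27 on this scale and 0.00 after TMM scaling. Relative to that median, Casp8, Ripk1, Birc2 and Fadd were lower and Mlkl, Birc3 and Cflar higher in replicate 2 on all 4 scales plotted. Ripk3 was lower on 3 and higher after TMM scaling.

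**Figure D4:**
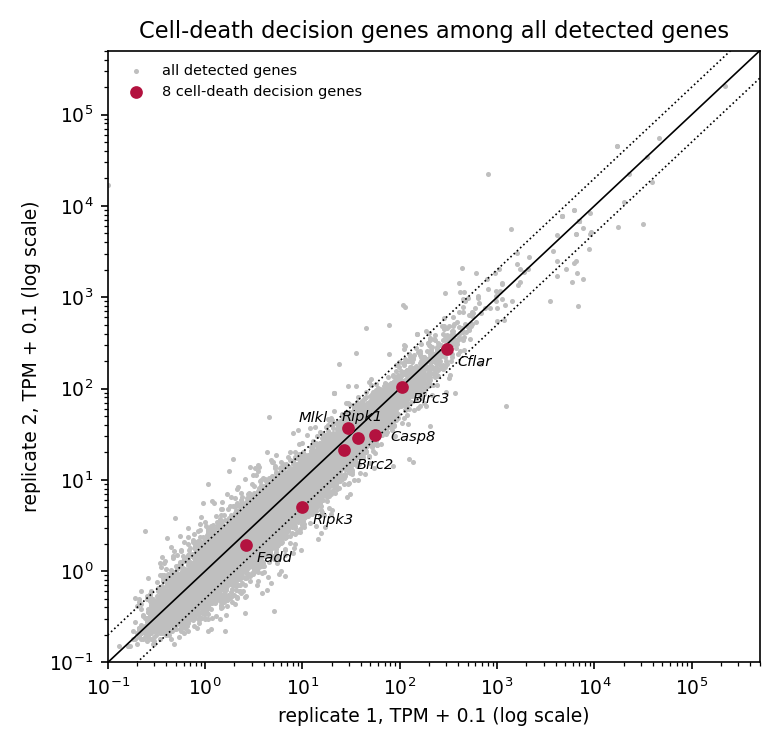
TPM + 0.1 of replicate 2 against replicate 1, both on log axes, for the 14587 detected genes (grey) and the 8 cell-death decision genes (red); the solid line marks equal values and the dotted lines 2-fold differences. All 8 genes lie between the dotted lines, with Ripk3 and Casp8 nearest the lower one.

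**Figure D5:**
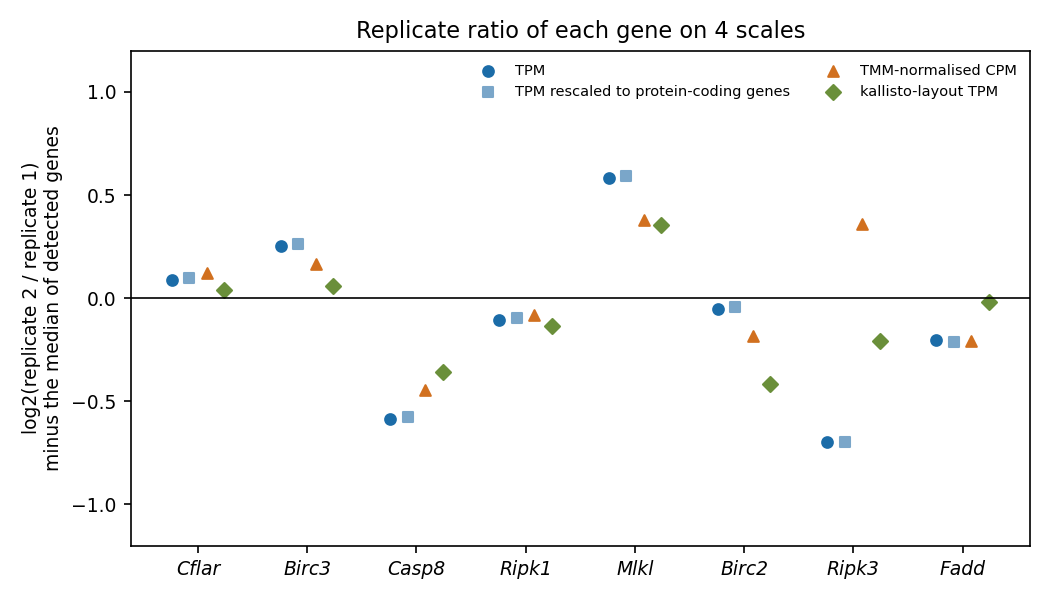
Log2 ratio of replicate 2 to replicate 1 for each gene, minus the median of all detected genes, on 4 scales. Casp8, Ripk1, Birc2 and Fadd lie below 0 and Cflar, Birc3 and Mlkl above 0 on each scale, while Ripk3 changes side after TMM scaling.

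All 18 listed partners of these genes in the TNF receptor complex had at least 1 TPM in both libraries. Their medians were 28.9 and 31.2 TPM. Highest were Tnfaip3, the ubiquitin-editing enzyme A20, with 202 and 197 TPM, Mapkapk2, a kinase that phosphorylates RIPK1, with 56.9 and 62.0 TPM, and Tab2, an adaptor of the kinase TAK1, with 61.0 and 45.1 TPM. The level of Tnfaip3 lay between those of Birc3 and Cflar. A cut of 1 TPM is low, as the medians of all detected genes were 6.99 and 5.79 TPM. The share of all genes that reach 1 TPM is not given here. Counts of genes at that cut, here and in the lists below, are thus no result about the listed genes.

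Of 11 ligands, receptors and activators of RIPK3, 9 reached 1 TPM in both libraries, with medians of 8.47 and 12.9 TPM. Tnf, the ligand itself, had 441 and 456 TPM, above every one of the 8 genes. Zbp1, a nucleic acid sensor that can activate RIPK3, had 150 and 156 TPM, and the interferon receptor gene Ifnar1 had 88.6 and 75.1 TPM. Fasl, the Fas ligand, had no count in either library, where 3 counts would be the limit that a count of 0 allows in each. Tnfrsf10b, the mouse TRAIL receptor, had 0.61 and 0.27 TPM. Among RIPK3 activators Zbp1 therefore stood well above the adaptor Ticam1, at 7.92 and 8.19 TPM, in both libraries.

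Of 12 executioners of apoptosis and their inhibitors, 11 reached 1 TPM in both libraries, with medians of 13.1 and 14.1 TPM. Birc6, a large inhibitor of caspases, had 118 and 76.8 TPM, Apaf1, the scaffold of the apoptosome, 51.9 and 44.3 TPM, and Xiap, a direct caspase inhibitor, 41.8 and 31.5 TPM. Birc5, which acts in cell division, had 1.85 and 0.77 TPM. Xiap and Birc6 are of the same family as Birc2 and Birc3, and Birc3 lay above Xiap in both libraries, but below Birc6 in replicate 1 and above it in replicate 2.

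All 11 modulators of necroptosis reached 1 TPM in both libraries, with medians of 21.5 and 22.8 TPM. Peli1, a ubiquitin ligase that acts on RIPK1 and RIPK3, had 68.1 and 61.9 TPM. Hsp90aa1, a chaperone of RIPK1, RIPK3 and MLKL, had 78.4 and 40.4 TPM. Vps4b, an ATPase of the ESCRT machinery that mends membranes, had 57.7 and 41.9 TPM. Each of these 3 stood above Ripk3 and Fadd in both libraries, but they were named as the 3 highest of their list.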

How the data were processed

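The deposited gene and transcript tables have the column layout that RSEM writes, and a further transcript table the layout that kallisto writes. Neither names a program or a strand setting. Alignment-based values and values made directly from reads both used mm10 with GENCODE M21, per the deposited file notes. Per the file headers, the authors deposited expected counts, TPM and the posterior mean of TPM, the latter with an interval of unstated level, and, in the kallisto-layout tables, estimated counts and TPM. Libraries held 20196408 and 19588980 expected counts.

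From these, each gene's level, within-library log2 ratios (pseudocount 0.1), transcript shares and replicate ratios were computed with Python 3.11.15, pandas 2.3.3, numpy 2.4.6 and scipy 1.17.1. Library scaling used TMM in edgeR 4.0.16 and, as an alternative, DESeq2 1.42.0 size factors (R 4.3.3), after rounding expected counts to integers. Only the ratio between libraries after TMM scaling was tested on simulated counts. The simulation did not cover ratios of TPM or the assignment of reads to transcripts. Detected means at least 10 expected counts in both libraries. With 1 group of 2 libraries no groups could be compared, and no test was run on the ratios within libraries, so no p-value is given. Intervals and limits cover counting error only, and reads without molecular identifiers are not independent molecules. A complete coding transcript is annotated as protein-coding, with a coding sequence that is not marked as lacking its start or end. All of these had a coding length divisible by 3. TPM divides by an effective length, so a few reads on a short transcript give a high TPM.

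The genes and lists were chosen with earlier results of these data known. Named were the 8 genes, each transcript with at least 10% of its gene's TPM in either library and either transcript table, the 3 highest genes of each wider list and those under 1 TPM, and annotated genes that overlap one of the 8. Ticam1 was named after its values were seen. Alternatives were the posterior mean, the kallisto-layout table, rescaling to protein-coding genes, pseudocounts of 0 and 1, other count filters, DESeq2 size factors and leaving out each replicate. Sums over complete coding transcripts and a rescaled kallisto-layout table were added after the data were seen.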

Additional observations from a re-analysis of the deposited data

How the results depend on the processing

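No value of the within-library ratios changed sign under any alternative run. Over complete coding transcripts, an alternative chosen after seeing the data, the mean log2 ratio of Cflar to Casp8 was 2.05, of Birc3 to Birc2 1.70 and of Casp8 to Ripk3 3.53. In the kallisto-layout table Birc3 to Birc2 was 2.93 and Casp8 to Ripk3 2.88. With the posterior mean TPM, Casp8 to Ripk3 was 2.19. With a pseudocount of 1 it was 2.42, and Fadd to Casp8 was −3.76. The cause was not tested. The share of genes past 2-fold between replicates was 20.0% with no filter on counts, 5.22% with at least 100 counts in both, 3.80% with a pseudocount of 1 and 96.7% in the kallisto-layout table, where all 8 genes were past 2-fold. In that table nuclear protein-coding genes held 22.8% of TPM in replicate 1 and 5.27% in replicate 2, and the median log2 ratio of all detected genes was −2.13. Rescaled to protein-coding genes, that table put none of the 8 genes and 6.59% of detected genes past 2-fold. Its log2 ratios for Birc2, Casp8 and Ripk3 were then −0.47, −0.40 and −0.37. Among the ratios and counts that answer a comparison 13 values moved and 64 did not move beyond the spread between replicates or 1.5 times. Among gene levels and transcript shares 44 moved, 22 higher and 22 lower, and 56 did not. In both tallies the unmoved include values that leave out a replicate. With 2 libraries such a value is that of the other library, so it could not move beyond the spread. These tallies are therefore no measure of stability. The levels and shares that moved include the mean level of Birc3, at 58.4 TPM over complete coding transcripts, the noncoding share of Mlkl, at 20.6% in the kallisto-layout table, and the share of Mlkl-201 in its pair, at 19.8% there. No paired analysis was possible because there is 1 group. Fadd and Ripk3, with 136 to 186 counts, are limited most by depth.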
